A study of Mus musculus with 9 samples.

Results

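Lactate dehydrogenases (LDH) interconvert pyruvate and lactate, and monocarboxylate transporters (MCT) carry lactate and pyruvate across the plasma membrane together with a small glycoprotein partner. In the testis, Sertoli cells release lactate, and postmeiotic germ cells take it up and use it as a main fuel. The data described here are the transcript levels of 9 genes of this system in mouse round spermatids (RS), the haploid cells that follow meiosis. They were 4 LDH genes (Ldha, Ldhb, Ldhc and Ldhal6b), 3 MCT genes (Slc16a1, Slc16a3 and Slc16a7) and the 2 transporter partners (Bsg and Emb), picked by gene symbol from the 55414 genes of the processed table. LDHA is the muscle type and LDHB the heart type of the enzyme, LDHC is the form made in male germ cells, and Ldhal6b is an LDHA-like gene. Besides the pyruvate reaction, LDHA and LDHC can reduce 2-oxoglutarate to L-2-hydroxyglutarate (L-2HG).

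The RS came from testes of mice that the labels give as wild type, and per the study's methods they were sorted by fluorescence from Stra8-iCre; CAG-tdTomato animals on a C57Bl/6 background, so both transgenes are shared by all groups. The cells were kept for 24 h in medium with 0.15% DMSO, with nothing else (vehicle, libraries 1 to 3), with 24 mM oxamate, a pyruvate analog that inhibits LDH (libraries 4 to 6), or with that dose of oxamate plus octyl-L-2HG at 0.3 mM, an ester that crosses cell membranes (libraries 7 to 9). The study's methods describe a medium with 5 mM sodium lactate and 5 mM sodium pyruvate for its meiotic cells and name none for RS. The comparisons ask whether transcripts of the enzymes that oxamate inhibits, and of the carriers of their substrates, change when LDH is inhibited and when L-2HG is given back. The study's methods name prepubertal and adult mice for cell isolation without saying which gave these libraries, and the number of animals per library is not given in the sources used here, so the p-values measure the spread between these libraries, which may be technical.

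Each library held between 32339533 and 39888396 counted reads. Round spermatid markers such as the acrosomal gene Acrv1 were abundant, and the 12 markers of these cells summed to between 98278 and 102753 normalized reads with vehicle, 96323 and 96836 with oxamate and 90380 and 93538 with both compounds. Of somatic cell markers, those with at least 10 reads over the 9 libraries were 5 of 10 for Sertoli cells, 4 of 6 for Leydig cells, 6 of 6 for peritubular cells, 5 of 6 for macrophages, 5 of 5 for endothelial cells and 0 of 5 for red blood cells. The most abundant of each list had summed counts of 1273 (Inha, Sertoli), 115 (Star, Leydig), 486 (Tagln, peritubular), 620 (Adgre1, macrophages) and 3243 (Vwf, endothelial). Fshr and Lyz2 were at 0, and Insl3 and Hsd3b1 of Leydig cells had a summed count of 1 each. Spermatocyte markers were present at 24352 to 26505 normalized reads with vehicle, 23606 to 26033 with oxamate and 25593 to 26422 with both. With vehicle, Ccna1 was the highest of them at 13367 and Dmc1 the lowest at 8.55. By DNA content, the study reports its sorted RS as all haploid. In bulk RNA, fewer cells of a type and less RNA per cell cannot be told apart.

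Promoter sequences of the LDH genes are shown because the levels of these genes differed so widely in RS. They are the 250 bases before the first start site that RefSeq lists on GRCm38.p6, a build other than that of the counts, and 7 of the 9 genes had an entry. Capitals mark the core of the cyclic AMP response element (CRE), TGACGT on either strand, to which CREB and the germ cell activator CREM bind.
Ldhc, chr7:46861013-46861262, plus strand: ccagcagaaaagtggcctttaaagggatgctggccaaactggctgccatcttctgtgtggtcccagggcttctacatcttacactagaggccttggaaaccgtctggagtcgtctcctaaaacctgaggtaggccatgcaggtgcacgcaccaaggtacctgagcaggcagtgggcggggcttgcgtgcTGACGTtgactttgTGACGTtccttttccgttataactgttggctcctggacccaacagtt
Ldha, chr7:46845554-46845803, plus strand: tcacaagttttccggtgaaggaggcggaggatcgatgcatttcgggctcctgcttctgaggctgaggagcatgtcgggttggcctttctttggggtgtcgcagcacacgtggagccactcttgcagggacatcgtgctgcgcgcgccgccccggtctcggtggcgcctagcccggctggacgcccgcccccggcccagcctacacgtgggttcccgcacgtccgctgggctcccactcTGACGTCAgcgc
Ldhal6b, chr17:5418768-5419017, minus strand: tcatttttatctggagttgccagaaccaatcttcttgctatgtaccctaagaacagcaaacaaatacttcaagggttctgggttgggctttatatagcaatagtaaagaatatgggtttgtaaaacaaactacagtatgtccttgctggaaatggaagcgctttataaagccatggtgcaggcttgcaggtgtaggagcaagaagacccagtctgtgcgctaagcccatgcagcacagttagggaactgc
Ldhb, chr6:142507958-142508207, minus strand: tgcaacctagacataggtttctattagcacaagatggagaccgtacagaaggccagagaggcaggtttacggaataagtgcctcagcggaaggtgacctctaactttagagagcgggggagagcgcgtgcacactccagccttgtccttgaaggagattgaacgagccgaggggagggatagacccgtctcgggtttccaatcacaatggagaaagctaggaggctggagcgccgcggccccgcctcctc
Ldhc and Ldha are neighbours on chromosome 7 in the same orientation, and each has 2 listed starts. In Ldhc the core begins at positions -61 and -47 from the start, and in Ldha the matches at -12 and -10 overlap in the palindrome TGACGTCA. The core was in 6.5% of 32851 windows of this length, and 1.8% held 2 or more matches, with a palindrome counted as 2. The windows of Ldhal6b and Ldhb had none. The letters ACGTG, part of the hypoxia response element and overlapping the E-box CACGTG, matched 5 times in Ldha (16.6% of all windows hold a match) and in none of the other 3 windows shown. Of these, the matches at -145 and -144 overlap in a palindrome CACGTG, as do those at -48 and -47. The GC box letters GGGCGG matched once in Ldhc and at 2 places in Ldha (32.7% of all windows), and TATAAA matched in Ldhal6b alone of the 4 (12.4% of all windows). These matches describe letters, not bound sites.

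Reads of these genes could mostly be told apart. Along the coding sequence Ldha was 73.8% identical to Ldhc, 71.4% to Ldhb and 62.9% to Ldhal6b, and the longest stretch that Ldha and Ldhc share is 20 bases, from coding base 688 to 707 in each.
Ldha and Ldhc, shared coding stretch: gttcacaagcaggtggtgga
None of the 1296 words of 75 bases in the main Ldhc transcript occurs in a transcript of another gene, against 6.0% for Ldha, 16.7% for Ldhb and 21.5% for Emb. The 4 genes that share words with Ldha had 5 to 47 reads in all over the 9 libraries, with Ldha-ps2 at 47, and the gene that does so with Ldhb had 2. Gm17509, which shares words with Emb, had 9 reads in all and at most 3 in a library, where Emb had 6 to 13. How reads that match 2 genes were counted is not stated. These low counts therefore do not show how many reads of Ldha, Ldhb or Emb were left out. Ldhal6b, which has 1 exon, lies wholly within an exon of the antisense gene Gm29050 in GENCODE. Gm29050 had 175 to 408 reads per library and Ldhal6b 35761 to 50812. The strand setting of the counting is not given in the sources used here. Counting without strand would give the reads of a gene that lies wholly inside another to both genes or to neither, and the counts of this pair were far apart.

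Ldhc was one of the most abundant transcripts of RS. Its normalized count, the count divided by the size factor of the library, ranked 2 among 25128 genes with vehicle, again 2 in the oxamate group and 5 when both compounds were given, and per kb of exon it ranked 1 in each group. It took 0.469% ± 0.0315 of all counted reads with vehicle, 0.431% ± 0.0419 with oxamate and 0.399% ± 0.0196 with both (SD, n = 3 each). All 9 genes together took 0.862% ± 0.0415, 0.801% ± 0.0519 and 0.766% ± 0.0248 (SD, n = 3). These shares are of total reads and so use another scaling than the tests.

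The 9 genes fell into an abundant set of 5 and a scarce set of 4. Per kb of exon, with vehicle, Ldhc stood at 104685 ± 7709 normalized reads, Ldhal6b at 29298 ± 1694, Ldha at 13610 ± 567, Bsg at 10727 ± 699 and Slc16a7 at 2674 ± 102 (SD, n = 3). The scarce genes were Slc16a1 at 12.9 (12 to 14.5 over 3 libraries), and Slc16a3 at 5.06 ± 0.203, Ldhb at 2.9 ± 0.946 and Emb at 1.28 ± 0.156 (SD, n = 3). This order of the abundant genes was the same in all 9 libraries, and their ranges did not overlap within any group. Among the scarce genes Slc16a1 and Slc16a3 overlapped in the libraries with both compounds (8.63 to 12.5 against 5.64 to 9.15 per kb), and Ldhb overlapped Emb with oxamate (0.613 to 3.64 against 1.52 to 1.9) and with both compounds (0.734 to 2.39 against 0.976 to 1.08). The order depends on the length used: per kb of coding sequence Ldha came before Ldhal6b and Slc16a7 before Bsg, in each library. Slc16a7 has 11839 bases of annotated exon and 1452 coding bases, the largest such gap of the 9 genes.

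**Figure D1:**
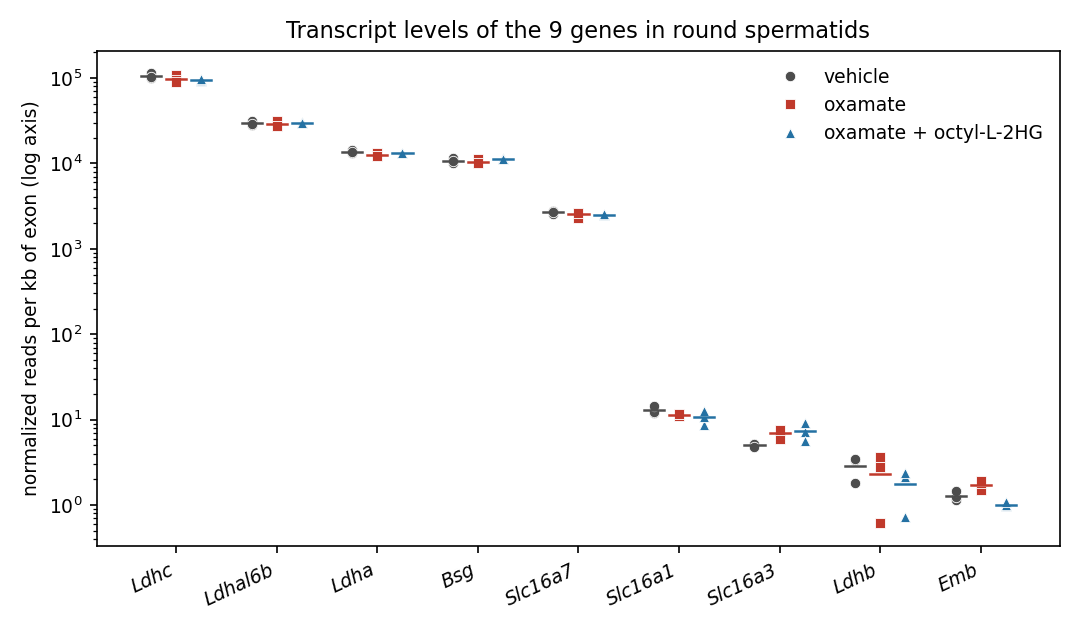
Normalized reads per kb of exon (log axis) for each of the 9 genes, 1 point per library and a line at the mean of 3 libraries of a group. Between Slc16a7, at 2674 per kb with vehicle, and Slc16a1, at 12.9, no gene of the 9 is found in any group.

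Within the LDH genes, levels per kb of exon divided as 70.9% ± 0.461 Ldhc, 19.9% ± 0.257 Ldhal6b, 9.23% ± 0.232 Ldha and 0.00195% ± 0.000586 Ldhb with vehicle (SD, n = 3). With both compounds Ldhc made up 68.7% ± 0.86 and Ldhal6b 21.7% ± 0.71 (SD, n = 3). On the coding length the vehicle shares were 67.9% Ldhc, 17.0% Ldha and 15.1% Ldhal6b. Ldhb, which in somatic tissues forms the heart-type enzyme, had between 1 and 6 reads per library. Among the MCT genes, Slc16a7, which encodes the high-affinity carrier MCT2, made up 99.3% of the summed level per kb of exon in each group. Slc16a1 encodes the widespread MCT1 and Slc16a3 encodes MCT4, the carrier of lactate-exporting cells. The level of Slc16a7 per kb of exon was 208 ± 20 times that of Slc16a1 with vehicle, and that of Bsg, the partner of MCT1 and MCT4, was 8444 ± 1263 times that of Emb, the partner of MCT2 (SD, n = 3). On the coding length these ratios were 568 ± 54.5 and 2151 ± 322 (SD, n = 3), so their size depends on the length used.

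None of the 9 genes was called in any comparison at the threshold of 0.05 on the adjusted p-value (edgeR's quasi-likelihood test, Benjamini-Hochberg over 25128 genes). Oxamate against vehicle called 0 of 9 where 5.19% of all genes were called, octyl-L-2HG added to oxamate against oxamate called 0 where 11.2% were, and both compounds against vehicle called 0 where 18.0% were. The test of any difference among the 3 groups called 0 of 9, with 19.8% of all genes called. At an unadjusted p-value under 0.05 the counts were 1, 1, 2 and 1, beside 17.3%, 23.6%, 30.0% and 31.5% of all genes. DESeq2 also called 0 in each, with no adjusted p-value for 1 or 2 of the scarce genes, and had 0 at an unadjusted p-value under 0.05. The median log2 fold change of the 9 genes was -0.081, -0.028 and -0.109 in the 3 comparisons, and that of all genes tested was -0.011, -0.038 and -0.045. The 2 comparisons with vehicle share its libraries, and the 2 comparisons with oxamate alone share those.

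**Figure D2:**
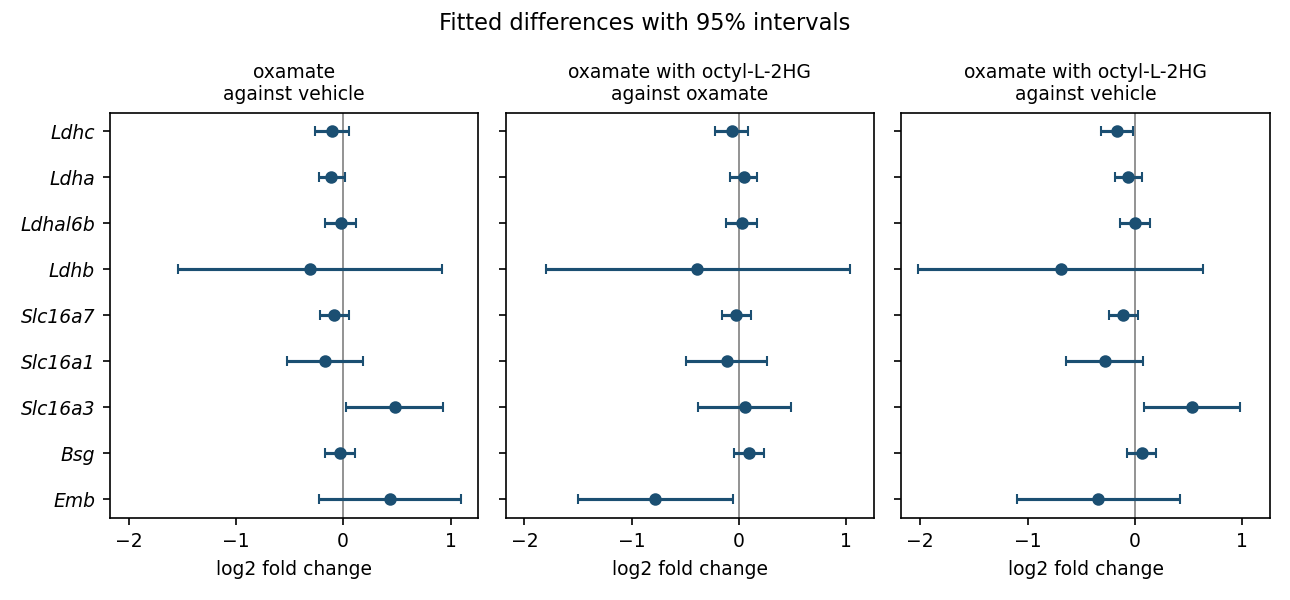
Fitted log2 fold change of each gene with its 95% interval in the 3 comparisons, from edgeR's quasi-likelihood fit. The 5 abundant genes lie between -0.17 and 0.093 with narrow intervals, and the intervals of Ldhb reach from -2.02 to 1.03.

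The differences of the 5 abundant genes lay within narrow bounds, and among the 10715 genes with a mean of at least 100 normalized reads, as they all have, 9.67%, 19.8% and 29.5% were called in the 3 comparisons. With oxamate against vehicle their fitted changes lay between -0.11 and -0.025 on the log2 scale, and all 95% intervals between 0.838-fold and 1.08-fold. With octyl-L-2HG added to oxamate the intervals lay between 0.858-fold and 1.17-fold, and with both compounds against vehicle between 0.799-fold and 1.15-fold. For the 4 scarce genes the intervals reached from 0.344-fold to 2.15-fold, from 0.287-fold to 2.04-fold and from 0.247-fold to 1.97-fold, with the outer bounds set by Ldhb, Emb and, for the last upper bound, Slc16a3. For Slc16a1 with oxamate the interval was 0.697-fold to 1.14-fold.

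**Figure D3:**
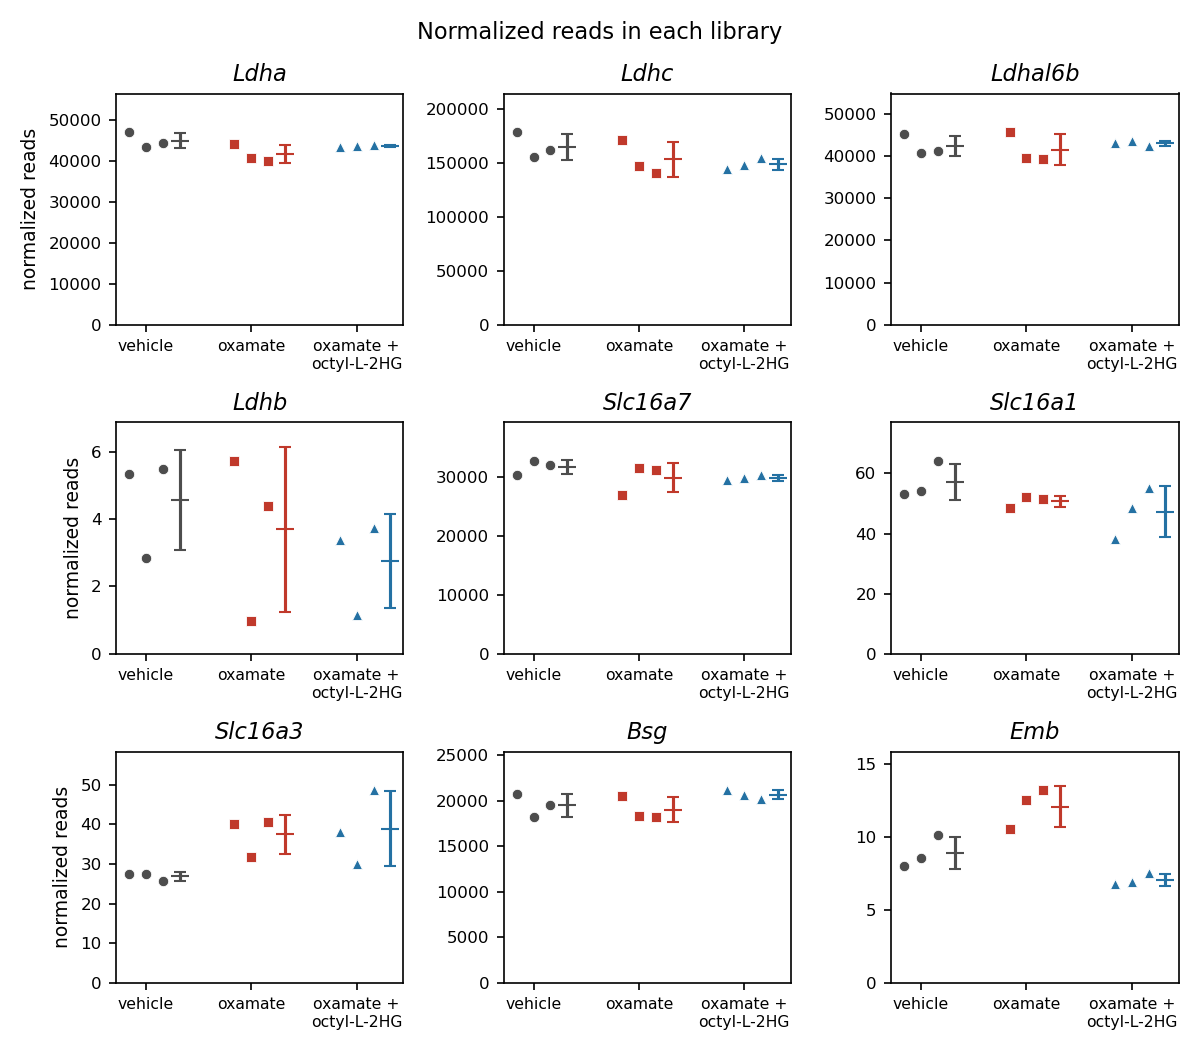
Normalized reads of each gene in each library (points), with the mean and SD of each group of 3 beside them, on axes that start at 0. Vehicle library 1 and oxamate library 4 are the highest of their groups for Ldhc, Ldha, Ldhal6b and Bsg and the lowest for Slc16a7.

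Ldhc had 178968, 155403 and 161835 normalized reads in the vehicle libraries, 171997, 147430 and 141169 in the oxamate libraries and 144554, 147978 and 154747 with both compounds. The oxamate libraries overlapped those of both other groups, while every library with both compounds lay below every vehicle library. The fitted change was -0.10 ± 0.073 (SE) for oxamate against vehicle (adjusted p = 0.528), -0.069 ± 0.073 for octyl-L-2HG added to oxamate (adjusted p = 0.648) and -0.17 ± 0.074 for both against vehicle (adjusted p = 0.117, 95% interval -0.32 to -0.018). The calls changed with oxamate library 4. Without it Ldhc was called, at -0.20 for oxamate against vehicle (adjusted p = 0.0226), -0.17 for both against vehicle (adjusted p = 0.0112) and in the test of any difference (adjusted p = 0.00686), while octyl-L-2HG added to oxamate turned to 0.027 (adjusted p = 0.821). The 3 tests that called it then called 2305, 6182 and 7338 of 25128 genes, beside 1303, 4534 and 4974 with all libraries. Without vehicle library 1, the test of any difference gave Ldhc an adjusted p of 0.579. Ldhc was also called for both compounds against vehicle with total reads as the scaling (-0.23, adjusted p = 0.0206), beside 4598 of all genes. The same held in a fit of the 6 libraries compared (-0.15, adjusted p = 0.0453), beside 5910 of all genes. Over the libraries left out in turn, its change for both against vehicle ranged from -0.21 to -0.11.

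Ldha had 47148, 43536 and 44466 normalized reads with vehicle, 44195, 40702 and 40123 with oxamate and 43428, 43763 and 44004 with both compounds, and the groups overlapped in each comparison. The changes were -0.11 ± 0.061 for oxamate against vehicle (adjusted p = 0.392), 0.043 ± 0.061 for octyl-L-2HG added to oxamate (adjusted p = 0.744) and -0.064 ± 0.061 for both against vehicle (adjusted p = 0.533). The sign of the second turned with total reads as the scaling. Ldhal6b had 45146, 40670 and 41189 normalized reads with vehicle, 45650, 39561 and 39203 with oxamate and 43080, 43532 and 42379 with both, with overlap throughout and no adjusted p-value under 0.879. Its change with both compounds against vehicle was 0.00064 ± 0.068, with a 95% interval of -0.14 to 0.14. Ldhb had 6, 3 and 6 reads with vehicle, 6, 1 and 4 with oxamate and 3, 1 and 4 with both, too few to show a change of the sizes seen in the other LDH genes.

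Slc16a7 had 30319, 32647 and 32004 normalized reads with vehicle, 26938, 31469 and 31135 with oxamate and 29409, 29700 and 30297 with both compounds. Each library with both compounds was below each vehicle library, with a change of -0.11 ± 0.065 (adjusted p = 0.281). Oxamate against vehicle gave -0.081 ± 0.065 (adjusted p = 0.583). Slc16a1 had 53.3, 54 and 64.1 normalized reads with vehicle, 48.6, 52 and 51.5 with oxamate and 38.2, 48.4 and 55.2 with both. The oxamate libraries lay below those with vehicle, with a change of -0.17 ± 0.17 (adjusted p = 0.68), and those with both compounds overlapped each of the other groups. Slc16a3 had 27.5, 27.5 and 25.6 normalized reads with vehicle, 40, 31.8 and 40.6 with oxamate and 38.2, 30 and 48.7 with both. Each treated library was above each vehicle library. The changes were 0.48 ± 0.22 for oxamate (adjusted p = 0.254) and 0.53 ± 0.22 for both compounds (adjusted p = 0.0981), and the counts behind them were 26 to 52 reads per library.

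Bsg encodes basigin, which brings MCT1 and MCT4 to the membrane. It had 20676, 18145 and 19552 normalized reads with vehicle, 20539, 18343 and 18155 with oxamate and 21153, 20577 and 20224 with both compounds. The groups overlapped in each comparison, and the change with octyl-L-2HG added to oxamate was 0.093 ± 0.067 (adjusted p = 0.451). Emb encodes embigin. It had 9, 9 and 11 reads with vehicle, 11, 13 and 12 with oxamate and 6, 6 and 8 with both. As normalized reads the oxamate libraries were above all others and those with both compounds below all others, with a change of -0.78 ± 0.35 for octyl-L-2HG added to oxamate (adjusted p = 0.2).

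Groups that do not overlap were common in the whole table. For oxamate against vehicle 3 of 9 genes did not overlap, with Slc16a3 and Emb higher and Slc16a1 lower, beside 21.3% of all genes (11.4% higher and 9.95% lower). For octyl-L-2HG added to oxamate 1 of 9 did not (Emb, lower) beside 28.8% (13.4% higher and 15.3% lower). For both against vehicle 4 of 9 did not, with Slc16a3 higher and Ldhc, Slc16a7 and Emb lower, beside 36.5% (18.0% higher and 18.5% lower).

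The abundant genes varied together from library to library within a group. Within-group deviations of log2 normalized counts correlated at 0.98 between Ldha and Ldhc, 0.97 between Ldha and Ldhal6b and 0.91 between Ldha and Bsg, while Slc16a7 ran against them, at -0.92 with Ldha and -0.97 with Ldhal6b (Pearson's r over 9 libraries, which share their depth and scaling). Pairs of other genes were not compared in this way, so these values are not shown to be particular to this set. Vehicle library 1 stood 0.12 above its group mean on the log2 scale for Ldhc and oxamate library 4 stood 0.17 above, and for Slc16a7 they stood -0.062 and -0.14 from it. Over 10696 genes, such deviations correlated with exon length at -0.26 in vehicle library 1, 0.35 in vehicle library 3 and -0.072 in oxamate library 4 (Spearman's rho, across genes). The fitted log2 fold changes of these genes also went with exon length, with Spearman's rho of 0.31 for oxamate against vehicle, 0.17 when octyl-L-2HG was added and 0.35 for both against vehicle. Whether these properties of the libraries shaped the comparisons of the 9 genes was not tested. Over all 9 libraries, the genes whose log2 normalized counts followed Ldhc most closely among 10715 genes were Tmem89, Gsto2 and Gstt2 (Pearson's r from 0.983 to 0.985). Those nearest to Ldha were Cdhr4, Atp5c1 and Nr1h3 (0.967 to 0.981), and those nearest to Bsg were Nop53, Cdk5rap3 and Pes1 (0.970 to 0.990). Ldha followed Ldhc at 0.811, at rank 633 in that order.

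Ratios within a library do not depend on the scaling. Ldhc counts were 3.8, 3.57 and 3.64 times those of Ldha in the vehicle libraries, 3.89, 3.62 and 3.52 times with oxamate and 3.33, 3.38 and 3.52 times with both compounds. The log2 ratio was 1.87 ± 0.05 with vehicle, 1.88 ± 0.07 with oxamate and 1.77 ± 0.04 with both (SD, n = 3). The libraries with both compounds lay below those with vehicle and below those with oxamate alone, although library 9 and oxamate library 6 are equal as printed, at 1.81, and differ only past the digits shown. The difference was -0.11 in each comparison, with p = 0.1 in a two-sided exact permutation test, the smallest p that 3 against 3 libraries allow. After adjustment over the 12 tests made of ratios the exact permutation p was 0.3. The Bsg to Emb log2 ratio was 11.03 ± 0.21 in the vehicle group, 10.57 ± 0.27 in the oxamate group and 11.41 ± 0.10 when both were given (SD, n = 3), and the libraries with both were above the rest (exact permutation p = 0.1, adjusted 0.3). Emb had 6 to 13 reads per library. The Ldha to Ldhb and the Slc16a7 to Slc16a1 ratios overlapped between groups in each comparison, with exact permutation p-values from 0.3 to 0.9 before adjustment. The 12 tests cannot pass 0.05 in this design.

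**Figure D4:**
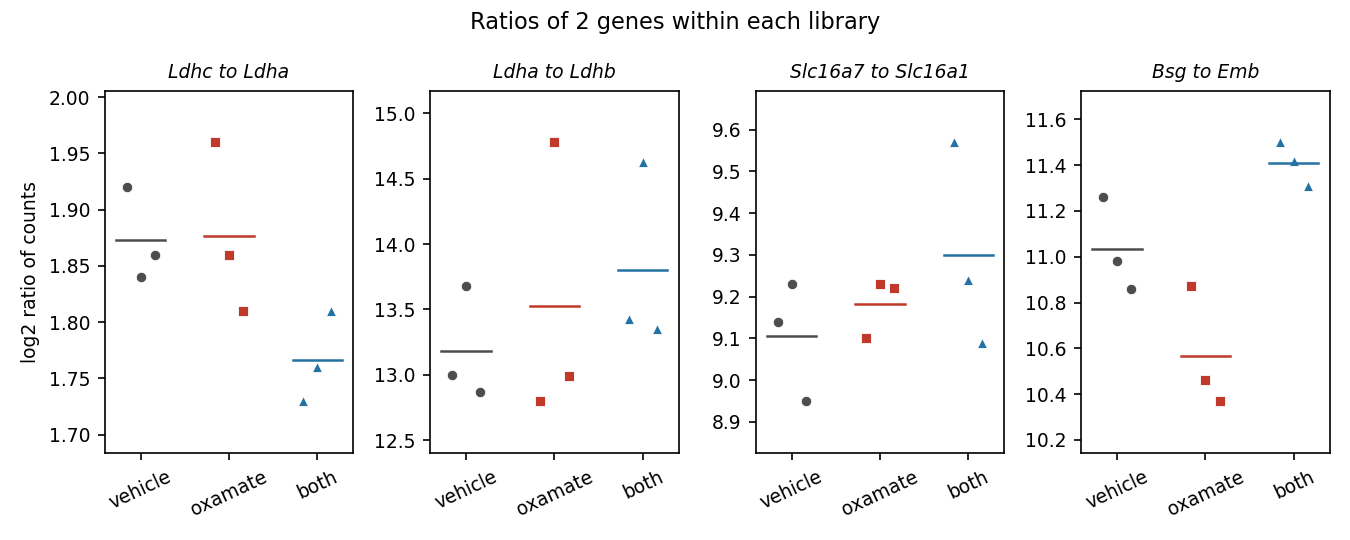
Log2 ratio of the counts of a gene pair within each library (points) and the group mean (line), with an axis of its own for each pair. The Ldhc to Ldha ratio in the libraries with both compounds, 1.73 to 1.81, lies at or below the lowest oxamate library.

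Most of the other carriers of monocarboxylates and their partners were scarce as well. Of 14 such genes 8 could be tested and 2 had a mean of at least 100 normalized reads, namely Slc16a6 (107 ± 7.08 with vehicle) and Nptn, which encodes the basigin relative neuroplastin (1121 ± 66.6 with vehicle, SD, n = 3). Per kb of exon these 2 stood at 22 and 182 with vehicle, where Slc16a1, the highest of the scarce members, was at 12.9. None of the 8 was called in any comparison.

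Genes that feed or drain the pyruvate and lactate pools were called about as often as genes in general. Of the 65 genes tested in the lists of other carriers, lactate and 2HG enzymes, pyruvate entry and glycolysis, oxamate against vehicle called 4, all higher, octyl-L-2HG added to oxamate called 8, all lower, and both compounds against vehicle called 13, 6 higher and 7 lower. These are 6.15%, 12.3% and 20.0% of the genes tested, beside 5.19%, 11.2% and 18.0% of all genes. By direction, 3.97% of all genes were called higher and 1.22% lower with oxamate, 3.18% and 8.06% when octyl-L-2HG was added, and 7.48% and 10.6% with both against vehicle. Without oxamate library 4 the 3 counts were 7, 12 and 18. All values that follow are normalized reads with SD over 3 libraries and log2 fold changes with SE from edgeR's quasi-likelihood fit.

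Slc2a3, the glucose transporter GLUT3, rose with oxamate and was partly lowered when octyl-L-2HG was added. Its level was 10620 ± 453 in the vehicle group, 21993 ± 3043 in the oxamate group and 15839 ± 289 when both were given, a change of 1.06 ± 0.08 for oxamate (adjusted p = 4.86e-08) and of -0.50 ± 0.079 when octyl-L-2HG was added (adjusted p = 0.000262). With both compounds it remained above vehicle by 0.56 ± 0.079 (adjusted p = 3.42e-05). Among the glycolytic enzymes, Pgam1 (phosphoglycerate mutase) was at 154 ± 7.42 with vehicle and 209 ± 47.4 with oxamate (0.46 ± 0.13, adjusted p = 0.0475). That call was lost with any library but oxamate 5 or 6 left out, up to adjusted p = 0.204 without oxamate library 4, and also with total reads as the scaling, with stricter filtering or with only the groups compared. Without oxamate library 4 the change of Pgam1 was 0.246. Pkm (pyruvate kinase), Gapdhs (the sperm-specific glyceraldehyde-3-phosphate dehydrogenase) and Gpi1 (glucose phosphate isomerase) fell when octyl-L-2HG was added to oxamate, by 0.34, 0.25 and 0.25 on the log2 scale (adjusted p = 0.0021, 0.0113 and 0.0169). They also fell with both compounds against vehicle, by 0.35, 0.23 and 0.44 (adjusted p = 0.000723, 0.0128 and 5.24e-05). Gapdhs lost its call in both comparisons without library 7 or 8, and in the second also without vehicle library 3, up to adjusted p = 0.0656. Gpi1 lost its call in the first without library 5, 8 or 9, up to adjusted p = 0.0961. With no filter on low counts, the calls of Gpi1 in the first (adjusted p = 0.0834) and of Gapdhs in the second (adjusted p = 0.0606) were lost as well. Of the 25 rows tested from the glycolysis list, 2 were higher with oxamate, 4 were lower when octyl-L-2HG was added, and 1 was higher and 4 were lower with both against vehicle. The fourth lower gene was Eno2 (neuronal enolase), named after its values were seen, with a summed count of 26 reads over the 9 libraries.

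Pyruvate dehydrogenase, which takes pyruvate into the citric acid cycle, had lower transcripts of both abundant E1 subunits with octyl-L-2HG. Pdhb (the E1 beta subunit) was at 3631 ± 124 in the vehicle group, 3838 ± 61.6 in the oxamate group and 2549 ± 29.6 when both were given, a change of -0.62 ± 0.063 when octyl-L-2HG was added (adjusted p = 2.22e-06). Pdha2, the testis form of the E1 alpha subunit, was at 6266 ± 133, 6656 ± 142 and 4868 ± 58.9, a change of -0.48 ± 0.061 (adjusted p = 2.88e-05). Both were also lower than with vehicle, by -0.53 ± 0.063 and -0.39 ± 0.061 (adjusted p = 4.38e-06 and 9.94e-05). Pdp1, the phosphatase that activates the complex, rose with oxamate from 2052 ± 65.6 to 2954 ± 205 (0.53 ± 0.07, adjusted p = 7.88e-05) and was at 2371 ± 132 with both compounds, lower than with oxamate (-0.34 ± 0.07, adjusted p = 0.00267). Pdk3, a kinase that inactivates the complex, fell by 0.24 when octyl-L-2HG was added and by 0.21 with both against vehicle (adjusted p = 0.0157 and 0.0246). Its call was lost without library 5, 7 or 8 in the first and without vehicle library 1 or 3 or library 7 or 8 in the second, up to adjusted p = 0.133, and in both with no filter on low counts (adjusted p = 0.0784 and 0.148). Dld (the E3 subunit) was higher with both against vehicle (0.20 ± 0.068, adjusted p = 0.0441), a call lost without any 1 of libraries 1, 3, 5, 7, 8 and 9, up to adjusted p = 0.176. Of the 15 genes of pyruvate entry and dehydrogenase, 1 rose with oxamate, 4 fell when octyl-L-2HG was added, and 2 rose and 3 fell with both against vehicle. The other gene that rose was the kinase Pdk2, named after its values were seen.

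Among 17 enzymes that share lactate, pyruvate or 2HG with LDH, malate dehydrogenase Mdh2 was at 481 ± 23.5 with vehicle, 580.4 ± 40.6 with oxamate and 579.9 ± 17.4 with both, and the aspartate aminotransferase Got1 was at 688 ± 35, 746 ± 37.5 and 827 ± 53.8. Both rose with both compounds against vehicle, by 0.25 ± 0.084 (adjusted p = 0.0425) and 0.24 ± 0.08 (adjusted p = 0.0384), and each lost its call without any 1 of libraries 2, 3, 5, 7, 8 and 9, up to adjusted p = 0.144 and 0.21. With total reads as the scaling, the calls of Mdh2, Got1 and Dld with both compounds were lost (adjusted p = 0.126, 0.125 and 0.187). No enzyme of this list was called when octyl-L-2HG was added to oxamate.

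**Figure D5:**
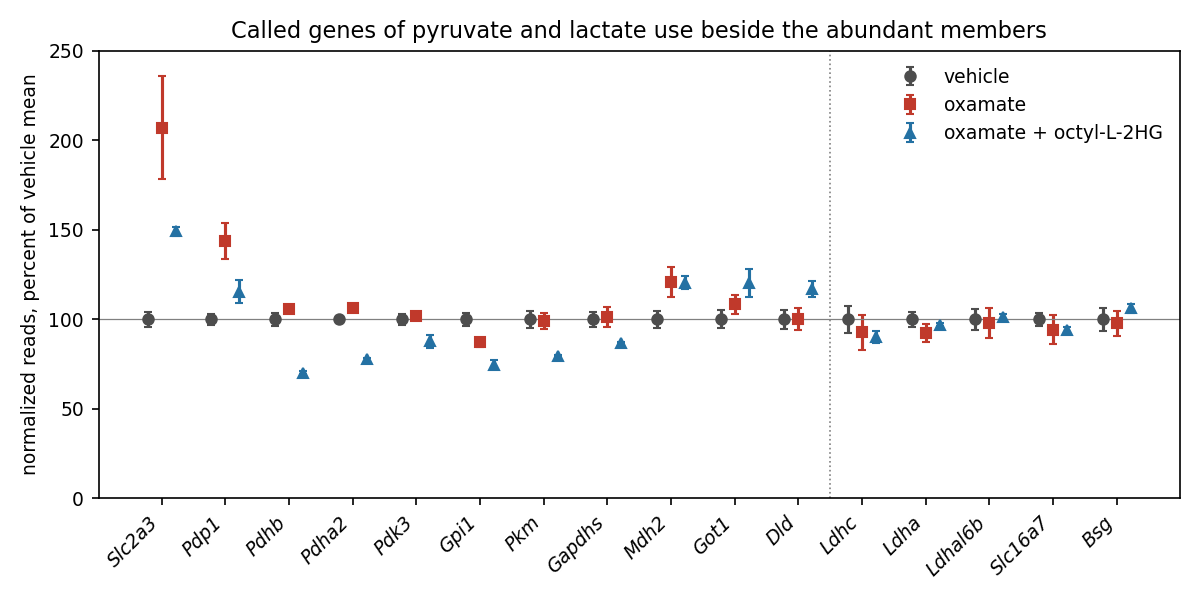
Normalized reads as percent of the vehicle mean (mean and SD of 3 libraries) for 11 called genes of lactate and pyruvate use, left of the dotted line, and the 5 abundant LDH and transporter genes, right of it. Slc2a3, with means of 10620 with vehicle and 21993 with oxamate, stands far above the genes on the right.

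The genes beside Ldha and Ldhc on chromosome 7 gave a local reference. Gtf2h1, a subunit of the transcription factor TFIIH that lies next to Ldha, was at 3304 ± 264 in the vehicle group, 3593 ± 423 in the oxamate group and 4834 ± 228 when both were given. It rose by 0.40 ± 0.081 when octyl-L-2HG was added (adjusted p = 0.00228) and by 0.53 ± 0.081 with both against vehicle (adjusted p = 7.36e-05). Spty2d1 rose by 0.24 ± 0.077 with both against vehicle (adjusted p = 0.0322), a call lost with total reads as the scaling (adjusted p = 0.118) and without vehicle library 1 or 3 or library 7 or 8, up to adjusted p = 0.174. Tsg101, next to Ldhc, was at 1483 ± 67.1, 1466 ± 53.1 and 1551 ± 41.1 and was not called. Hps5 and Uevld, the latter an LDH-related gene at 62.7 ± 3.18 with vehicle, were not called either, with adjusted p-values of 0.113 and 0.112 for both against vehicle. Without oxamate library 4, Gtf2h1 was called with oxamate (adjusted p = 0.0288) and Hps5 with both compounds (adjusted p = 0.0402), the latter also with only the groups compared (adjusted p = 0.0385).

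Markers of the sorted cells moved in the same comparisons. The late spermatid genes Prm1, Prm2 and Tnp2, which encode proteins that pack sperm DNA, fell with oxamate by 0.45, 0.38 and 0.32 on the log2 scale (adjusted p = 0.000224, 0.000746 and 0.00607), and with both compounds against vehicle by 0.77, 0.68 and 0.75 (adjusted p = 1.11e-07, 2.92e-07 and 2.11e-07). The counts of markers stand beside these shares of all genes tested: 3.97% called higher and 1.22% lower with oxamate, 3.18% and 8.06% when octyl-L-2HG was added, and 7.48% and 10.6% with both against vehicle. Among genes with a mean of at least 100 normalized reads, as the 12 round spermatid markers have, 9.67%, 19.8% and 29.5% were called. Of these 12 markers, 1 rose and 4 fell with oxamate, 6 fell when octyl-L-2HG was added, and 2 rose and 8 fell with both against vehicle. Of 10 spermatocyte markers 2 rose with oxamate (Mybl1 and Piwil1), 2 rose when octyl-L-2HG was added (Mybl1 and Sycp2), 1 rose with both against vehicle (Mybl1), and none fell. Mybl1, a regulator of meiotic genes, was at 774 ± 61.5 in the vehicle group, 951 ± 73.9 in the oxamate group and 1307 ± 17.5 when both were given. The calls of Mybl1 and Piwil1 with oxamate (adjusted p = 0.0299 and 0.032) were each lost without any 1 of 7 libraries, up to adjusted p = 0.145 and 0.107. Of the 8 spermatogonial markers 1 was lower with both against vehicle (Sohlh1, named after its values were seen), and summed levels were 219 to 234 with vehicle and 244 to 254 with both. Summed Sertoli markers were at 159 to 212, 149 to 251 and 209.7 to 235 in the 3 groups, Leydig markers at 29.4 to 39.1, 23 to 29.5 and 31.4 to 41.2, peritubular markers at 129 to 153, 119 to 133 and 100.2 to 112, macrophage markers at 151 to 183, 139 to 140.0 and 137 to 161, and endothelial markers at 571 to 630.1, 588 to 626 and 487 to 535. Of the somatic lists, peritubular markers had 1 lower gene with oxamate and with both against vehicle (Cnn1, named after its values were seen), and endothelial markers had 1 higher (Kdr) with oxamate, 1 lower (Vwf) when octyl-L-2HG was added and these 2 with both against vehicle. The call of Kdr with oxamate was lost without any 1 of 7 libraries, up to adjusted p = 0.177, and in DESeq2 (adjusted p = 0.075), and with both against vehicle without any 1 of 4. That of Vwf when octyl-L-2HG was added was lost without any 1 of 8 libraries, up to adjusted p = 0.221, and in DESeq2 (adjusted p = 0.0791). Sertoli, Leydig and macrophage lists had 0 called genes. The part of these cells, or of the change in spermatid markers, in the values of the 9 lactate genes was not tested.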

How the data were processed

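RNA of sorted RS was sequenced after polyA selection with a stranded kit. The authors trimmed the reads with cutadapt 2.10, aligned them with TopHat2 2.1.1 to GRCm39 with Ensembl annotation and deposited raw gene counts made with HTSeq 2.01. A second deposited set of columns holds a normalized signal, the count divided by 1 DESeq2 size factor per library, from 0.867 to 1.125. Of 55414 genes listed, 6250 had no values. No column of values went unused. The sample labels also name the build WBcel235, and the labels and the methods name different sequencers.

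Groups came from the sample labels. Genes with a summed count of at least 10 (25128) were fitted with edgeR 4.0.16 in R 4.3.3 (TMM, all 9 libraries, group as the only term, robust quasi-likelihood), with a threshold of 0.05 on the adjusted p-value over all genes tested. Intervals are 95% intervals of that fit. Alternatives were DESeq2 1.42.0, other scalings, filters and thresholds, fits of the 6 libraries compared, and each library left out. The lengths of coding exons and a fit without vehicle library 1 and oxamate library 4 together were added after seeing the data. Levels per kb used the union of exons in GENCODE M21, another annotation, with identifiers in common for 99.6% of tested genes. Ratios used counts plus 0.5 and scipy 1.17.1. Coding sequences were aligned with Biopython 1.88. Between libraries of a group, counts differed by more than sampling noise (chi-square per degree of freedom from 2.1 to 23.31).

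The 9 genes and the gene lists were chosen with earlier results of these data known. Named in the text are the 9 genes, the neighbours of Ldha and Ldhc, from each other list up to 4 called genes per comparison with a mean of at least 100 normalized reads, by size of change (for the marker lists a part of these), and the 3 genes most correlated with Ldhc, Ldha and Bsg. Other genes outside that rule, marker genes included, are named to give counts. A gene that the lists count but the text leaves out is not reported here.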

Additional observations from a re-analysis of the deposited data

How the results depend on the processing

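No paired analysis was possible because no replicate number is shared between groups. Of 67 counts of the 9 genes called under the alternatives, 59 stayed at 0. Of the other 8, 5 were 1, each time Ldhc: both compounds against vehicle with total reads as the scaling or with only the 6 libraries compared, and, without oxamate library 4, oxamate against vehicle, both against vehicle and any difference, so that leaving libraries out in turn gave from 0 to 1 call there. The last 3 came from a fit without vehicle library 1 and oxamate library 4 together. It was added after seeing the data, and these libraries were picked because they stood highest of their groups for Ldhc, so its calls are not independent of that choice. It called 1 gene for octyl-L-2HG added to oxamate (Bsg, 0.16, adjusted p = 0.00825), 1 for both against vehicle (Slc16a7, -0.14, adjusted p = 0.0161), and 3 in the test of any difference (Bsg, Slc16a7 and Ldhc, adjusted p = 0.0124, 0.0323 and 0.0493). How many of all genes that fit called was not counted. Without oxamate library 4 alone, the same 3 tests called 4417, 6182 and 7338 of 25128 genes. With both libraries left out, Ldhc was not called in its other comparisons. Of 429 fold changes of the 9 genes under the alternatives 23 turned sign, none of them called. In the fit without vehicle library 1 and oxamate library 4, octyl-L-2HG added to oxamate gave 0.12 for Ldhb and 0.027 for Ldhc. With total reads as the scaling, octyl-L-2HG added to oxamate gave -0.00043 for Ldha and -0.018 for Ldhal6b, and both against vehicle -0.062 for Ldhal6b. With no filter on low counts, octyl-L-2HG added to oxamate gave 0.018 for Slc16a7. With libraries left out in turn, oxamate against vehicle ranged from -0.81 to 0.15 for Ldhb, -0.11 to 0.024 for Ldhal6b and -0.093 to 0.018 for Bsg. Octyl-L-2HG added to oxamate ranged from -0.85 to 0.11 for Ldhb, -0.13 to 0.027 for Ldhc, -0.018 to 0.11 for Ldhal6b, -0.26 to 0.018 for Slc16a1, -0.16 to 0.2 for Slc16a3 and -0.091 to 0.012 for Slc16a7, and both against vehicle from -0.023 to 0.05 for Ldhal6b. The causes were not tested. The edgeR filterByExpr setting left out Ldhb. None of the 96 alternative values of the ratios moved beyond the spread between libraries, but within it signs turned with libraries left out. For oxamate against vehicle, Ldha to Ldhb ranged from -0.29 to 0.71 and Ldhc to Ldha from -0.039 to 0.034. When octyl-L-2HG was added, Ldha to Ldhb ranged from -0.13 to 0.91 and Slc16a7 to Slc16a1 from -0.019 to 0.22.

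The count of all genes called for oxamate against vehicle was 1303, and 723 with only the groups compared, 602 at an adjusted p under 0.01 and 669 to 2305 with libraries left out, the ends being without vehicle library 2 and oxamate library 4. For octyl-L-2HG added to oxamate it was 2823, and 1261 at 0.01 and 1385 to 4417 with libraries left out (7 and 4). For both against vehicle it was 4534, and 2607 and 2961 to 6182 (7 and 4), and for any difference 4974, and 2774 and 3156 to 7338 (7 and 4). With total reads as the scaling, octyl-L-2HG added to oxamate split into 421 higher and 2516 lower in place of 798 and 2025, and both against vehicle into 1231 and 3367 in place of 1879 and 2655. The pathway lists had 4 calls for oxamate against vehicle, and 2 with total reads, with only the groups compared or at 0.01, and 2 to 7 with libraries left out. They had 8 for octyl-L-2HG added to oxamate, and 5 at 0.01 and 5 to 12 with libraries left out, and 13 for both against vehicle, and 7 at 0.01 and 7 to 18 with libraries left out. For any difference they ranged from 8 to 20. Depth limits Ldhb, Emb, Slc16a1 and Slc16a3.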
